A study of Mus musculus with 6 samples.

Results

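Lysyl oxidases, lysyl hydroxylases, prolyl 4-hydroxylases and the collagen chaperone gene Serpinh1 were followed in sorted cardiac fibroblasts and endothelial cells. The cells came from left ventricles of Black Swiss males, 8 to 10 weeks old. A gene was included when a probe set of the array was annotated with its symbol and no other. Of the 10 genes Lox, Loxl1, Loxl2, Loxl3, Plod1, Plod2, Plod3, P4ha2, P4ha3 and Serpinh1, 9 met this rule with 15 probe sets, out of 18194 genes in all. Loxl2 shares its probe sets with a further gene symbol and is therefore not described. Where a gene has several probe sets, the brightest on average over the 6 arrays represents it.

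The operation was transverse aortic constriction (TAC), in which a band narrows the aorta so that the ventricle pumps against a raised pressure, or a sham, and cells were taken 1 week later. The 6 groups were Tie2cre lineage traced fibroblasts after TAC and after sham, non-lineage traced fibroblasts after TAC and after sham, and endothelial cells after TAC and after sham, with 1 array each. Per the series' design text, 3 mice had each operation, and the sources used here do not say whether arrays of 1 operation share hearts or hold pooled RNA. In Tie2cre mice the promoter of Tek, an endothelial receptor gene, drives the Cre recombinase, so tracing marks cells that use or whose ancestors used that promoter, and blood cells can use it too. Levels below are log2 of the probe set intensity, and differences are log2 differences. TAC and sham were compared with 1 array against 1, so those differences have no error and no test.

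Collagen chains are modified before and after they leave the cell. In the endoplasmic reticulum, prolyl 4-hydroxylases make the hydroxyproline that stabilises the triple helix, lysyl hydroxylases make hydroxylysine, and the chaperone HSP47 binds the folded helix. Outside the cell, lysyl oxidases turn lysine and hydroxylysine side chains into aldehydes that react to crosslinks, which stiffen the fibrotic heart.

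The sorted cells carried the markers of their labels. All 9 fibroblast markers stood higher on the fibroblast arrays and all 8 endothelial markers higher on the endothelial arrays at both surgeries. The summed intensity of the fibroblast markers was 97573 to 103034 on the 4 fibroblast arrays, against 40772 after TAC and 3114 at sham on the endothelial arrays. The untraced fibroblast TAC array stood apart in the middle probe set for 18S ribosomal RNA (13.67, other arrays 14.44 to 14.75) and in the 3′ minus 5′ difference of the Gapdh control (2.10, other arrays 1.12 to 1.36). For that reason traced and untraced fibroblasts are given separately.

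After TAC, fibroblasts of both lineages stood at least 2-fold higher in 4 of the 9 genes, which were P4ha3, Lox, Plod2 and Loxl3. Over all 11623 genes detected on the fibroblast arrays, meaning above the array median on at least 1 of them, the same rule was met by 4.33%. No gene of the 9 was at least 2-fold lower in both lineages, where all genes gave 1.79%. P4ha2 came nearest, and after quantile normalization it met this rule. The median difference of the 9 genes was 0.77 in traced and 0.65 in untraced fibroblasts, beside 0.08 and 0.02 over all detected genes. The traced arrays alone, without the array that stood apart, also gave 4 genes at least 2-fold higher, with 6.19% of all genes. In these sorted samples a difference in the share of cells with a transcript and one in transcript per cell cannot be told apart.

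**Figure D1:**
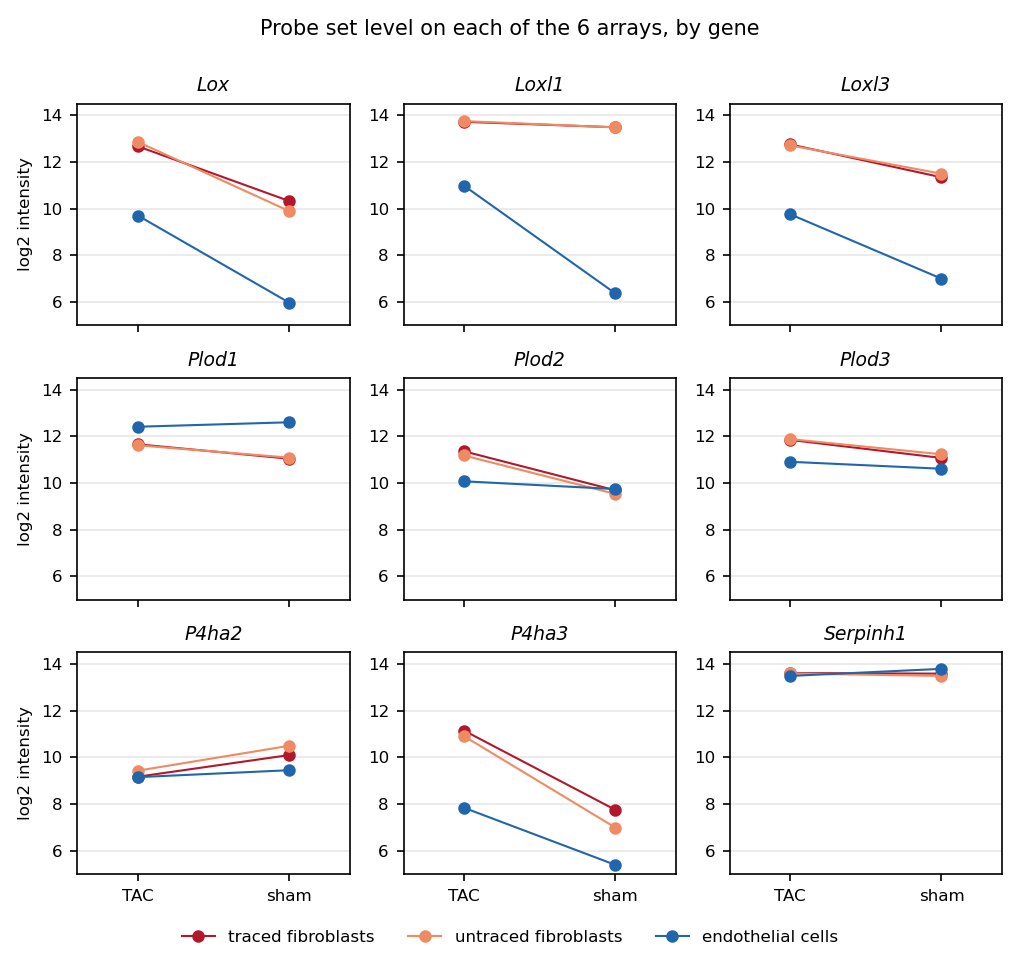
The plot of levels shows log2 intensity (vertical axis) on the TAC and the sham array of each cell population (traced and untraced fibroblasts, endothelial cells) for each of the 9 genes, 1 point per array. Fibroblast TAC points lie clearly above sham points for Lox, Loxl3, Plod2 and P4ha3, endothelial TAC points lie far above sham points for Lox, Loxl1, Loxl3 and P4ha3, and the Serpinh1 points stay between 13.49 and 13.80.

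Among the lysyl oxidases, Lox encodes the copper-dependent founding member of the family. Lox stood at 12.67 in traced and 12.86 in untraced fibroblasts after TAC, against 10.33 in traced and 9.90 in untraced fibroblasts at sham. The TAC arrays of both lineages lay above both sham arrays, by 5.08-fold in traced and 7.81-fold in untraced fibroblasts. A second bright probe set of Lox gave almost the same differences, 2.57 in traced and 2.69 in untraced fibroblasts. The remaining one was below the 10th percentile of the array on 4 of the 6 arrays and gave 0.82 and 0.89 in traced and untraced fibroblasts. Lox maps to chromosome 18 from 52516060 to 52529867 in GRCm38.p6, the build of all positions given here.

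Loxl3, a family member that carries scavenger receptor domains, stood at 12.75 in traced and 12.71 in untraced fibroblasts after TAC, against 11.35 in traced and 11.50 in untraced fibroblasts at sham. The TAC arrays were 2.65-fold and 2.32-fold higher in traced and untraced fibroblasts, and the groups did not overlap. Loxl1, which is needed for elastic fibre upkeep in mice, differed by less than 2-fold in fibroblasts. It stood at 13.72 in traced and 13.75 in untraced fibroblasts after TAC, against 13.49 in traced and 13.48 in untraced fibroblasts at sham. The difference was 0.23 in traced and 0.27 in untraced fibroblasts, and its other probe set gave 0.38 and 0.12. Loxl3 lies on chromosome 6 (83034205 to 83052566) and Loxl1 on chromosome 9 (58287723 to 58313212).

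Of the lysyl hydroxylases, Plod2 encodes the enzyme that hydroxylates the telopeptides of collagen, which steers crosslinks towards the hydroxylysine type seen in fibrotic tissue. Plod2 stood at 11.36 in traced and 11.18 in untraced fibroblasts after TAC, against 9.69 in traced and 9.53 in untraced fibroblasts at sham. This was 3.18-fold in traced and 3.13-fold in untraced fibroblasts, the closest match between lineages of the 9 genes. The other probe set of Plod2 gave 1.56 in traced and 1.73 in untraced fibroblasts. The gene lies on chromosome 9 (92539636 to 92608428).

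Plod1, the lysyl hydroxylase of the collagen helix, and Plod3, which also transfers sugars to hydroxylysine, differed less than 2-fold in fibroblasts. Plod3 stood at 11.85 in traced and 11.88 in untraced fibroblasts after TAC, against 11.08 in traced and 11.23 in untraced fibroblasts at sham. Plod1 stood at 11.66 in traced and 11.62 in untraced fibroblasts after TAC, against 11.04 in traced and 11.09 in untraced fibroblasts at sham. For both genes the TAC arrays lay above the sham arrays, by 0.77 and 0.65 for Plod3 in traced and untraced fibroblasts, and by 0.62 and 0.53 for Plod1. A dim second probe set of Plod1 gave the opposite sign, with -0.41 in traced and -0.24 in untraced fibroblasts, so the direction for Plod1 depends on the probe set. Plod1 lies on chromosome 4 (147909753 to 147936776) and Plod3 on chromosome 5 (136987019 to 136996646).

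The catalytic subunits of prolyl 4-hydroxylase encoded by P4ha3 and P4ha2 stood on opposite sides of 0 in fibroblasts, P4ha3 higher and P4ha2 lower after TAC. P4ha3 stood at 11.15 in traced and 10.91 in untraced fibroblasts after TAC, against 7.75 in traced and 6.99 in untraced fibroblasts at sham. The TAC arrays were 10.5-fold higher in traced and 15.1-fold higher in untraced fibroblasts, the largest fibroblast differences of the 9 genes in either lineage. The sham values of P4ha3 lay above 61.4% of all probe sets in traced and 52.3% in untraced fibroblasts. With 32 added to each intensity before the logarithm, the log2 differences were 3.22 in traced and 3.62 in untraced fibroblasts. P4ha2 stood at 9.17 in traced and 9.43 in untraced fibroblasts after TAC, against 10.10 in traced and 10.50 in untraced fibroblasts at sham. Its difference was -0.93 in traced and -1.07 in untraced fibroblasts, so it reached 2-fold in untraced fibroblasts only. After quantile normalization the values were -1.02 and -1.10, past 2-fold in both lineages. Each gene has a single probe set with its symbol alone, so neither difference can be checked against another probe set.

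Because these paralogs differed in opposite directions, the promoter sequence upstream of each is shown, from RefSeq in GRCm38.p6 and on the plus strand, up to the base before the annotated start of the gene. P4ha3 is at chr7:100285270-100285488 and P4ha2 at chr11:54100674-54100923. Capitals mark ACGTG or GCGTG on either strand, the core that hypoxia-inducible factors recognise.
P4ha3: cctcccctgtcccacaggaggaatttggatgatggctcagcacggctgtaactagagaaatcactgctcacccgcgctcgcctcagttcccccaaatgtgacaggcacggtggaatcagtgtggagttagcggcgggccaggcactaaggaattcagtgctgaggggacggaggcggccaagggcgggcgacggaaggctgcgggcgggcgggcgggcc
P4ha2: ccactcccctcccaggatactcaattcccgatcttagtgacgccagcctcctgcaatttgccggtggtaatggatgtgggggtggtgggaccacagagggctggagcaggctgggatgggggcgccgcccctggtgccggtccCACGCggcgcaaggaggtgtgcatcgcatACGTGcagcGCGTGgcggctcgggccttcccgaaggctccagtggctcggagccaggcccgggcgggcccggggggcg

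The P4ha2 sequence holds 3 of these cores and the P4ha3 sequence 0. Over the window of 300 bases in the reference table, which runs from 250 bases before to 50 after a transcript start, P4ha2 holds 4, P4ha3 0, Plod3 4, Plod1 2 and Serpinh1 1. At least 1 such core is present in 43.8% of all 32851 promoter windows of that length. The AP-1 motif TGANTCA, searched on both strands, was in none of the 5 windows and in 7.81% of all windows. The Smad motif GTCTG had 1 match each in Plod1 and Serpinh1 and was in 49.6% of all windows, and the TATA motif TATAAA had 1 match in Plod1 and was in 13.6% of all windows. Motif matches are a description of these letters, and the table holds windows for 5 of the 10 genes.

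Serpinh1, which encodes HSP47, differed least of the 9 genes by surgery in fibroblasts. It stood at 13.61 in traced and 13.60 in untraced fibroblasts after TAC, against 13.59 in traced and 13.49 in untraced fibroblasts at sham. The difference was 0.02 in traced and 0.11 in untraced fibroblasts, and a second probe set, of the kind that may bind other transcripts too (suffix x), gave 0.14 and 0.19. The main probe set was brighter than 99.5% to 99.7% of all probe sets on each of the 6 arrays. The gene lies on chromosome 7 (99345375 to 99353239).

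**Figure D2:**
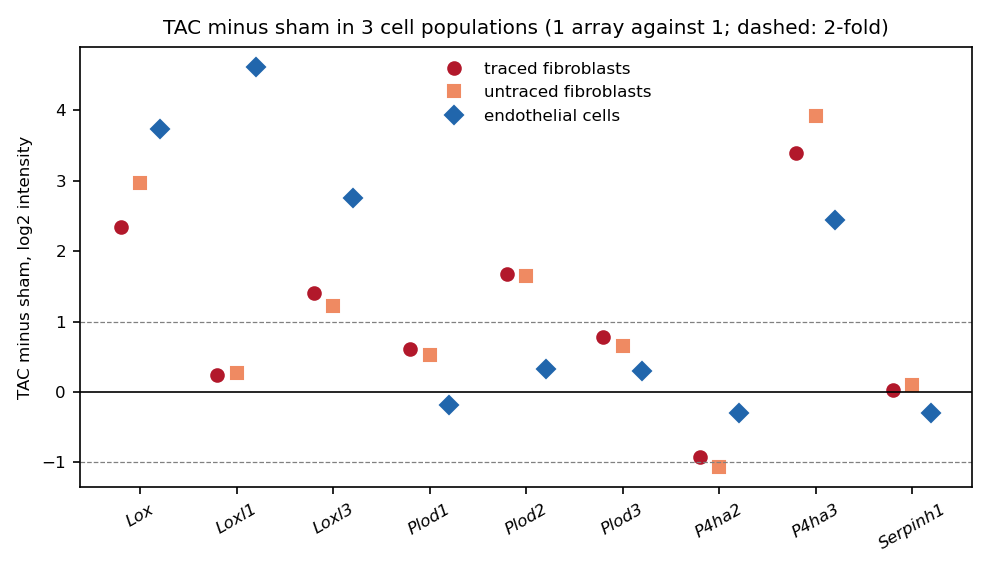
The plot of TAC differences gives TAC minus sham in log2 intensity (vertical axis) for the 9 genes in both fibroblast lineages and in endothelial cells, each point being 1 array minus 1 array, with dashed lines at 2-fold. The fibroblast points of both lineages lie above the upper dashed line for Lox, Loxl3, Plod2 and P4ha3, and the endothelial points do so for Lox, Loxl1, Loxl3 and P4ha3.

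In endothelial cells 4 of the 9 genes stood at least 2-fold higher after TAC and 0 at least 2-fold lower, against 10.9% and 1.83% of the 11157 genes detected on the endothelial arrays. The 4 were Loxl1, Lox, Loxl3 and P4ha3, and 3 of them, Lox, Loxl3 and P4ha3, were at least 2-fold higher in all 3 populations, as were 2.33% of the 12257 genes detected on any array. Loxl1 stood at 10.98 on the endothelial TAC array, against 6.37 on the sham array, a 24.5-fold difference, and its other probe set gave 8.17-fold. Lox stood at 9.71 after TAC, against 5.97 at sham, a 13.3-fold difference. Loxl3 stood at 9.76 after TAC and 7.00 at sham (6.78-fold), and P4ha3 at 7.84 after TAC and 5.39 at sham (5.45-fold). The sham values of Loxl1, Lox and P4ha3 lay below the array median, above 42.8%, 36.3% and 27.3% of all probe sets, so the size of these folds rests on dim values. These 3 genes counted as detected on the endothelial arrays through the TAC array alone, where they were higher. With 32 added to each intensity before the logarithm, the log2 differences were 4.17 for Loxl1, 3.19 for Lox, 2.49 for Loxl3 and 1.82 for P4ha3. All 4 were brighter on the endothelial TAC array, while Loxl1 hardly differed by surgery in fibroblasts.

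Fibroblast markers were higher there too. In endothelial cells all 9 stood at least 2-fold higher after TAC than at sham, with a median difference of 3.20 and with Pdgfra at 8.72 after TAC and 7.63 at sham and Tcf21 at 9.02 after TAC and 6.52 at sham. None of the 8 endothelial markers differed by 2-fold there, with a median of -0.29. Expressed as a percentage of the mean fibroblast level after TAC, the endothelial TAC array carried Loxl1 at 14.8%, Loxl3 at 12.7%, Lox at 12.0% and P4ha3 at 11.0%. The fibroblast markers Islr, Pdgfra, Tcf21 and Ddr2 were at 9.70% to 10.4% on the same measure, Lum at 18.8%, and Dcn, Col1a1, Col1a2 and Col3a1 at 42.1% to 64.5%. At sham the percentages were 0.720% for Loxl1, 4.66% for Loxl3, 5.67% for Lox and 25.3% for P4ha3, and 0.989% to 5.36% for the 9 fibroblast markers. The part of fibroblast RNA in the endothelial differences of these 4 genes was not tested.

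The other genes differed little in endothelial cells. Plod2 stood at 10.07 after TAC and 9.74 at sham, which is 0.33 beside 1.67 and 1.65 in traced and untraced fibroblasts. Plod3 stood at 10.91 after TAC and 10.61 at sham, P4ha2 at 9.15 after TAC and 9.45 at sham, Plod1 at 12.41 after TAC and 12.60 at sham, and Serpinh1 at 13.49 after TAC and 13.80 at sham. None of these 5 reached 2-fold on the main probe set, though the dim second probe set of Plod1 was 2.05-fold lower after TAC. Whether endothelial cells and fibroblasts differ in their response was not tested. On the endothelial TAC array Plod2 was at 43.6% of the fibroblast level and Plod3 at 51.6%.

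**Figure D3:**
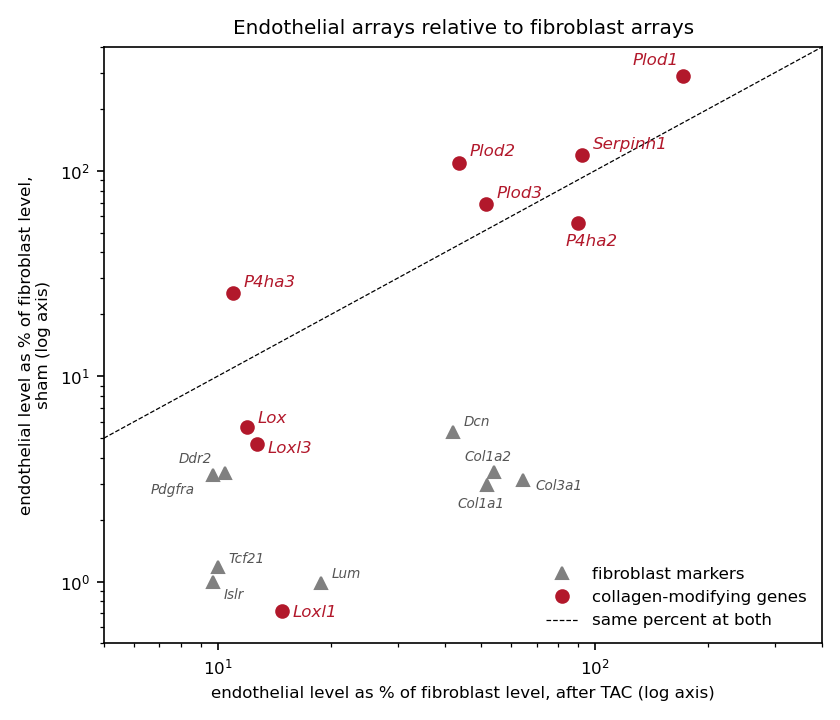
The plot of percentages places each gene by its endothelial level as a percent of the mean fibroblast level after TAC (horizontal, log axis) and at sham (vertical, log axis), for the 9 collagen-modifying genes (circles) and the 9 fibroblast markers (triangles). Lox, Loxl3, Loxl1 and P4ha3 lie between 11.0% and 14.8% after TAC, next to Pdgfra, Tcf21, Ddr2 and Islr, while Plod1 lies above 100% at both surgeries.

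Fibroblasts and endothelial cells were then compared over both surgeries, using the mean of the traced and untraced arrays at each surgery, which leaves 2 values per cell type. Averaged over both surgeries, Loxl1, Loxl3, Lox and P4ha3 were the 4 genes with the largest differences in favour of fibroblasts, and Plod1 had the largest in favour of endothelial cells. No gene of the 9 passed the test (limma, Benjamini-Hochberg adjusted p under 0.05 and at least 2-fold), where 11.5% of 12257 genes were called higher and 6.5% lower in fibroblasts. At an unadjusted p under 0.05 there were 3 of the 9, Loxl1, Loxl3 and Plod1, beside 35.6% of all genes. The spread in this test is the difference between surgeries, which is large for the genes that differed after TAC.

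Loxl1 was 2.76 higher in fibroblasts after TAC and 7.12 higher at sham, a mean of 4.94 (standard error 1.54, limma adjusted p = 0.0944). Loxl3 was 2.97 higher after TAC and 4.42 higher at sham, with a mean of 3.70 (standard error 1.03, limma adjusted p = 0.075). For Lox the differences were 3.06 after TAC and 4.14 at sham (mean 3.60, standard error 1.53, limma adjusted p = 0.173). P4ha3 was 3.19 higher after TAC and 1.98 higher at sham (mean 2.58, standard error 1.47, limma adjusted p = 0.278). All 4 genes were thus higher in fibroblasts at both surgeries, and all fibroblast arrays lay above the endothelial array of the same surgery.

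With surgery as a block, 5 of the 9 genes passed. Lox (limma adjusted p = 0.00152), Loxl3 (0.0021), P4ha3 (0.00427) and Loxl1 (0.0142) were then higher in fibroblasts, and Plod1 (0.031) lower, while 18.7% of all genes were called higher and 9.09% lower. Leaving out the endothelial TAC array, on which fibroblast markers were higher, the difference was 7.24 for Loxl1 and 5.08 for Loxl3. Without the endothelial sham array the Loxl1 difference was 2.63. Each of these fits has 1 endothelial value, so the spread of a gene comes from its fibroblast values alone. Loxl1 differed by 0.25 between surgeries in the fibroblast mean but by 4.62 in endothelial cells, so no pass is read from these fits. Of all genes, 14.0% were called higher and 6.18% lower without the endothelial TAC array. Without the endothelial sham array these shares were 5.59% and 3.85%, and the same limit holds for all 4 shares.

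Plod1 ran the other way. The 4 fibroblast arrays held it at 11.04 to 11.66, against 12.41 after TAC and 12.60 at sham on the endothelial arrays, with no overlap. Its mean difference was -1.16 (standard error 0.293, limma adjusted p = 0.0612), and the dimmer probe set of Plod1 gave -0.75 after TAC and -1.46 at sham. Cardiomyocyte markers were also higher on the endothelial arrays, 6 of 8 by at least 2-fold at both surgeries, with a summed intensity of 992 to 1469 on fibroblast arrays, against 4133 after TAC and 9165 at sham on endothelial arrays. Of the 8 mural markers, Rgs5 and Myh11 were at least 2-fold higher on the endothelial arrays at both surgeries, and Pdgfrb was at least 2-fold lower. The part of either marker list in the Plod1 difference was not tested.

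For the remaining genes the intervals of the difference were as follows. Plod2 differed by 0.53 with a 95% interval from -1.05 to 2.11 (limma adjusted p = 0.56), being 1.20 higher in fibroblasts after TAC and -0.13 at sham. Plod3 differed by 0.75 with an interval from -0.13 to 1.63 (limma adjusted p = 0.189). P4ha2 differed by 0.50, from -0.57 to 1.57 (limma adjusted p = 0.425). Serpinh1 differed by -0.07, from -0.70 to 0.56 (limma adjusted p = 0.855), and its second probe set by 0.69. Differences within these intervals are not excluded by 2 values per cell type.

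**Figure D4:**
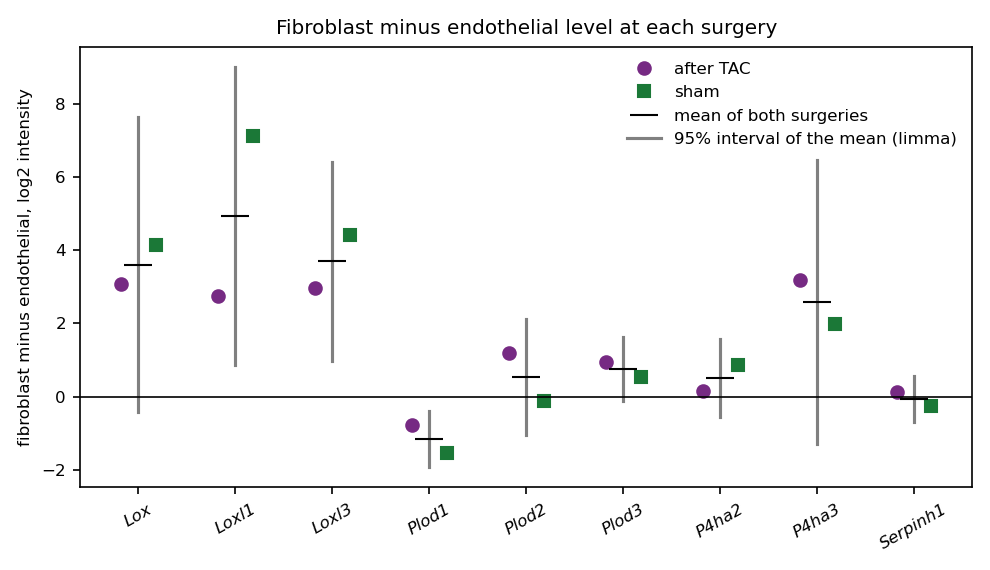
The plot of cell type differences shows fibroblast minus endothelial log2 intensity (vertical axis) after TAC (circles) and at sham (squares), with the mean of both surgeries (dash) and its 95% interval from limma (line). Lox, Loxl1, Loxl3 and P4ha3 lie above 0 and Plod1 below 0 at both surgeries, and Loxl1 has the widest gap between surgeries, 2.76 after TAC and 7.12 at sham.

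Tie2cre traced and untraced fibroblasts differed by less than 2-fold in these genes. None of the 9 was at least 2-fold apart in the same direction at both surgeries. This rule was met by 0.0688% of the 11623 detected genes, so a count of 0 does not set the 9 genes apart. The lineage differences after TAC include the untraced TAC array that stood apart, and the lineage difference was not tested. The widest lineage difference was that of P4ha3, 0.24 after TAC and 0.76 at sham in traced minus untraced fibroblasts. Lox was -0.19 after TAC and 0.43 at sham (0.08 and 0.20 on its second bright probe set), and P4ha2 was -0.26 after TAC and -0.40 at sham. In the other 6 genes the lineage difference lay between -0.16 and 0.18. The TAC difference of Lox was 0.62 smaller in traced than in untraced fibroblasts, but on the second bright probe set of Lox the TAC differences were 2.57 in traced and 2.69 in untraced fibroblasts.

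Other genes of collagen processing were listed from textbook knowledge, with earlier results of these data known. Of 22 listed genes 19 had a probe set of their own and 18 were detected on the fibroblast arrays. In both lineages 0 of these 18 were at least 2-fold higher and 1 at least 2-fold lower, beside 4.33% and 1.79% of all detected genes. With 18 genes, neither count sets the list apart from all genes. The collagen galactosyltransferase gene Colgalt2 was at least 2-fold lower, at 9.03 in traced and 9.13 in untraced fibroblasts after TAC, against 10.44 in traced and 10.52 in untraced fibroblasts at sham. P4ha1, which encodes the other catalytic subunit of prolyl 4-hydroxylase, was -0.13 in traced and -0.33 in untraced fibroblasts. The prolyl 3-hydroxylase genes P3h1 (1.05 in traced and 0.83 in untraced) and P3h2 (1.07 and 0.88) reached 2-fold in traced fibroblasts only. Median differences of the 18 genes were 0.31 in traced and 0.31 in untraced fibroblasts.

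On the endothelial arrays 6 of 17 detected genes of this list stood at least 2-fold higher after TAC, beside 10.9% of all genes and all 9 fibroblast markers, and the part of fibroblast RNA in this was not tested. They were the procollagen proteinase enhancer genes Pcolce2 (2.60) and Pcolce (2.27), P3h3 (2.33), the isomerase gene Fkbp14 (1.88), P3h2 (1.29) and P3h4 (1.03). Pcolce2 and P3h3 lay below the array median at sham, so they counted as detected on the endothelial arrays through the TAC array alone. Pcolce2 was lower after TAC in fibroblasts, at -0.76 in traced and -0.80 in untraced cells. Tll1, below the array median on all 6 arrays, was 2.61 higher on the endothelial TAC array, a difference between dim values.

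Between cell types 8 of these 18 genes passed as higher in fibroblasts and 0 as lower (limma, adjusted p under 0.05 and at least 2-fold), beside 11.5% and 6.5% of all genes. Pcolce2 differed by 4.57 (limma adjusted p = 0.0363), P3h3 by 4.01 (0.037), P3h4 by 3.02 (0.0171), Adamts3, a procollagen N-proteinase gene, by 2.34 (0.0161) and P3h1 by 2.26 (0.0322). The procollagen C-proteinase gene Bmp1 differed by 1.81 (0.015), the lysyl oxidase-like gene Loxl4 by 1.48 (0.0473) and Crtap, a partner of P3h1, by 1.34 (0.0454). Adamts3 lay below the array median on both endothelial arrays, at 5.42 after TAC and 5.11 at sham. It therefore entered the test through the fibroblast arrays alone, where it was higher, and its difference rests on dim endothelial values. With surgery as a block 11 of the 18 passed as higher and 0 as lower, beside 18.7% and 9.09% of all genes.

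The genes whose profile over the 6 arrays was most like that of Lox were Ecrg4, Ptn and Thbs4, at root mean square distances of 0.25, 0.28 and 0.30 between profiles centred on their own mean. For Plod2 they were Lbh (0.15), Tmem98 (0.17) and Mical2 (0.17), and for P4ha3 they were Bdnf (0.27), Ereg (0.33) and Col12a1 (0.39). Thbs4, for example, was 2.83 higher after TAC in traced and 3.52 higher in untraced fibroblasts and 3.25 higher in endothelial cells. Lbh was 1.53 and 1.49 higher in traced and untraced fibroblasts and 0.07 higher in endothelial cells. Whether arrays share hearts is not given, so these distances describe the 6 arrays only.

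Markers of other cells and of cell division also differed by surgery in fibroblasts. All 7 measured proliferation genes stood at least 2-fold higher after TAC in traced and untraced fibroblasts and in endothelial cells. The 8 endothelial markers were lower after TAC in fibroblasts, with medians of -0.79 in traced and -0.61 in untraced cells and summed intensities of 672 and 964 after TAC in traced and untraced cells, against 1260 and 1429 at sham. Of 8 macrophage markers, 4 of which lay above the array median on at least 1 array, 2 were higher after TAC in traced and 3 in untraced fibroblasts. Their summed intensity was 1062 and 671 after TAC in traced and untraced fibroblasts, against 1475 and 990 at sham. Cx3cr1, the 1 macrophage marker at least 2-fold lower in either lineage, stood at 8.39 and 7.16 after TAC, against 9.94 and 9.09 at sham, while Csf1r stood at 8.29 and 7.59 after TAC, against 6.85 and 6.63 at sham. The mural list summed to 9282 and 8105 after TAC, against 9478 and 9698 at sham. Its median differences were -0.54 in traced and -0.72 in untraced fibroblasts. Of its 8 genes, Myh11, Abcc9 and Kcnj8 were at least 2-fold lower in both lineages, while 3 were higher in traced and 2 in untraced fibroblasts. Cardiomyocyte markers summed to 1469 and 1206 after TAC in traced and untraced fibroblasts, against 1156 and 992 at sham. The part of these in the fibroblast differences of Lox, Loxl3, Plod2 and P4ha3 was not tested.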

How the data were processed

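Gene expression was measured on Affymetrix arrays with biotin-labelled cRNA, starting at 200 ng of RNA per the labels' protocols. The deposited table gives an intensity for each of 45101 probe sets and 6 arrays. RMA is named per the submitters' processing notes, and its version is not given in the sources used here. Values run from 3.82 to 37205, so they are read as linear, and log2 was taken. Array medians were 106.6 to 115.2 intensity units, and no further normalization was applied. RMA gives no detection call and shrinks differences of dim probe sets, and the number of arrays limits the precision.

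Gene symbols were those of the array's annotation, brought up to date through their identifiers (99.4% found). Probe sets had 1 symbol (34958), several (932) or none listed here (9211). The comparison of cell types used limma 3.58.1 (R 4.3.3) over 12257 detected genes, adjusted by Benjamini-Hochberg, after a check on simulated data. The simulated data held no difference between surgeries, so the check does not bear on the spread of the real test. The limma p-values reflect the spread among these arrays alone. In the main setting that spread is the difference between surgeries, not the scatter of replicate arrays. All other comparisons were 1 array against 1 and are counted at 2-fold. All 9 measured members are named. Of the other list, genes at least 2-fold apart or called are named. P4ha1, P3h1 and P3h2 in fibroblasts and Tll1 were added after their values were seen. The members and lists were chosen with earlier results of these data known.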

Additional observations from a re-analysis of the deposited data

Results flagged for a closer look

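In Plod1 and Serpinh1 both fibroblast populations stood higher after TAC and endothelial cells lower, on the main probe sets. The endothelial TAC difference minus the mean fibroblast TAC difference was -0.76 for Plod1 and -0.37 for Serpinh1, in log2 units. The difference was not tested, and every difference behind it is under 2-fold. Other probe sets go against the pattern, since the second Serpinh1 probe set was 0.09 higher after TAC in endothelial cells and the dim second Plod1 probe set was lower in traced (-0.41) and untraced (-0.24) fibroblasts as well.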

How the results depend on the processing

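The count of members at least 2-fold higher after TAC was 4 in fibroblasts and 4 in endothelial cells, and that of members apart by lineage was 0, with the mean of all probe sets, with probe sets without a shared-probe suffix (which leave out Serpinh1), with quantile normalization and with log2(intensity + 32). Quantile normalization took P4ha2 past 2-fold lower in both lineages (-1.02 and -1.10). Between cell types 0 members passed in the main setting and 5 with surgery as a block. When 1 of the 4 values was left out, the lone value of a cell type was assumed to vary like the other cell type. For that reason no count of members is given. Leaving out 1 value at a time, the cell type difference ran from -0.30 (without fibroblast TAC) to 1.36 for Plod2, from -0.001 (without fibroblast sham) to 0.997 for P4ha2 and from -0.22 to 0.081 (without endothelial sham) for Serpinh1, so that the sign turned, as it did for Serpinh1 with the mean of all probe sets (0.31), none of them past the threshold. The cause was not tested. The same ranges were 1.74 (without endothelial sham) to 5.47 (without endothelial TAC) for Lox, 0.76 (without fibroblast TAC) to 4.41 (without fibroblast sham) for P4ha3, 2.63 to 7.24 for Loxl1 and 2.32 to 5.08 for Loxl3, the low ends of these last genes without endothelial sham and the high ends without endothelial TAC. The mean of all probe sets brought the Lox difference after TAC to 1.91 in traced fibroblasts, 2.18 in untraced fibroblasts and 2.61 in endothelial cells, since it includes a dim probe set, the endothelial Loxl1 difference to 3.82, and the Plod1 difference to 0.11, 0.15 and -0.61.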
